A study of Mus musculus with 6 samples.

Results

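NRF2, the product of Nfe2l2, is the transcription factor that switches on the antioxidant response. The cytoplasmic protein Keap1 normally holds it for ubiquitination by a Cul3 ligase and so for degradation. Oxidants and electrophiles modify Keap1, NRF2 builds up, pairs with small Maf proteins and binds antioxidant response elements in front of genes for glutathione synthesis, thioredoxin recycling, quinone reduction and haem breakdown. Embryonic stem cells use these pathways to hold down oxidants while they divide rapidly. The 10 genes described here are Nfe2l2 and Keap1, the quinone reductase gene Nqo1, the haem oxygenase gene Hmox1, the glutathione synthesis genes Gclc, Gclm and Slc7a11, the glutathione reductase gene Gsr, and the thioredoxin pathway genes Txnrd1 and Srxn1. They were chosen by exact gene symbol, and 21 of the 45101 probe sets on the array carried such a symbol. All 10 were among the 18193 named genes.

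RNA came from 3 samples of Sirt1-/- and 3 of Sirt1+/+ R1 cells, a mouse embryonic stem cell line of strain (129X1 x 129S1)F1. Sirt1 removes acetyl groups from proteins and needs NAD to do so. Both genotypes were cultured on gelatin in medium with 15% serum, 0.1 mM beta-mercaptoethanol, which is itself a thiol reductant, and 100 IU/ml leukaemia inhibitory factor, which sustains self-renewal. Each sample was read on 1 Affymetrix 3' expression array, in log2 units. The comparison asks which of the 10 transcripts differ between cells without and with Sirt1. The labels give a single source for each genotype and do not state separate cultures. The p-values therefore reflect the spread of these samples alone, which may be technical, and an effect of Sirt1 cannot be told apart from anything else that differs between both sources.

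The median of all probe sets on an array was 4.51 to 4.56 in Sirt1-/- cells and 4.53 to 4.57 in Sirt1+/+ cells. Sirt1 read 8.02, 7.94 and 8.20 in Sirt1-/- cells, against 10.12, 10.13 and 10.23 in Sirt1+/+ cells. No source used here says whether its probe set lies within the deletion. All 10 markers of undifferentiated stem cells lay above the median level of the named genes, 5.83. Their mean level per array was 11.52 to 11.53 in Sirt1-/- cells and 11.78 to 11.82 in Sirt1+/+ cells. Of these stem cell markers 6 were called lower, 0 higher and 4 did not pass. The shares of all named genes were 17.5% lower and 12.5% higher. The largest falls were those of Nanog (-0.90 in log2 units) and Tdgf1 (-0.65). Fibroblast markers, which would report feeder cells, averaged 4.71 to 4.88 in Sirt1-/- cells and 4.83 to 4.85 in Sirt1+/+ cells, a mean over genes that went both ways. Of the 9 measured, Vim was higher (1.28 in log2 units), Thy1 (-1.07) and Pdgfrb (-0.50) were lower and 6 did not pass. The collagen genes Col1a1, Col1a2 and Col3a1 and also Lum lay under the lower quartile of the named genes, 3.65. By the mean of all 6 arrays, the 10 endoderm markers all lay below the median gene. In Sirt1+/+ cells alone Cubn (6.37), Dab2 (6.26), Gata6 (6.23) and Pdgfra (6.09) averaged above it, and the others below. The mean of the 10 was lower in each Sirt1-/- array, at 4.45 to 4.60 against 5.36 to 5.41 in Sirt1+/+ cells. Of these endoderm markers 6 were called lower, 0 higher and 4 did not pass, and Cubn fell most (-2.24). The part of these markers in the results below was not tested, and in bulk RNA fewer cells of a type cannot be told apart from less RNA per cell.

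Stretches of 4 promoters are shown because they hold the short sequences by which the NRF2 and integrated stress response pathways are known to act. The sequences are those of RefSeq on GRCm38.p6. The 250 bases before each listed transcript start were searched on both strands for the core of the antioxidant response element, TGACNNNGC, and for the element bound by C/EBP and ATF4 dimers, TGATGNAA. The table used held 9 starts for 7 of the genes, 3 of them for Txnrd1. Capitals mark the matches, which read as the reverse complement in Gclm, in Txnrd1 and in the second match of Slc7a11.
Nfe2l2: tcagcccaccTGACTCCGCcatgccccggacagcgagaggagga
Gclm: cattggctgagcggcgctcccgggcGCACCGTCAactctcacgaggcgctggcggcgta
Txnrd1: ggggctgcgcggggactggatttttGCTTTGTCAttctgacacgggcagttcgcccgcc
Slc7a11: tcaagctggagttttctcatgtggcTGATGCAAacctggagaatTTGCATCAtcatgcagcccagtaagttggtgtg
The Nfe2l2 stretch is chr2:75704870-75704913 on the minus strand, and the Gclm stretch is chr3:122245398-122245456 on the plus strand. The Txnrd1 stretch, before 1 of its 3 starts, is chr10:82859089-82859147 on the plus strand, and the Slc7a11 stretch is chr3:50443628-50443704 on the minus strand. The antioxidant core was found before 3 of the 9 starts, against 10.2% of the 32851 promoters in the table. It began 240 bases before the start in Nfe2l2, 134 in Gclm and 92 in Txnrd1, counted from the farther end. The C/EBP-ATF element was found before 1 of the 9 starts, against 3.45% of all promoters, and in Slc7a11 it occurred on both strands, 66 and 47 bases before the start. A match is a description of letters and not a shown binding site. No antioxidant core was found before the listed starts of Keap1, Nqo1, Srxn1 and Slc7a11. Sequence farther than 250 bases before a start was not read, so elements there would be missed. Hmox1, Gclc and Gsr were not searched.

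Across the 10 genes, transcripts of the pathway did not move as a block. In Sirt1-/- cells Hmox1, Nqo1, Nfe2l2, Gclm and Slc7a11 rose, Keap1 and Srxn1 fell, and Gclc, Txnrd1 and Gsr did not pass the test. A gene was called changed at a Benjamini-Hochberg adjusted p under 0.05 over all 18193 named genes in limma, a linear model with moderated variances, each gene being read on its brightest probe set. Of all named genes 30.0% were called, 12.5% as higher and 17.5% as lower in Sirt1-/- cells. Against those shares, 5 of 10 members were higher and 2 of 10 lower. The median log2 change was 0.19 over the 10 genes and -0.01 over all named genes. The 3 arrays of each genotype did not overlap for 9 of the 10, against 43.8% of all named genes. The members were picked with earlier results of these data known, so their counts are a description.

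**Figure D1:**
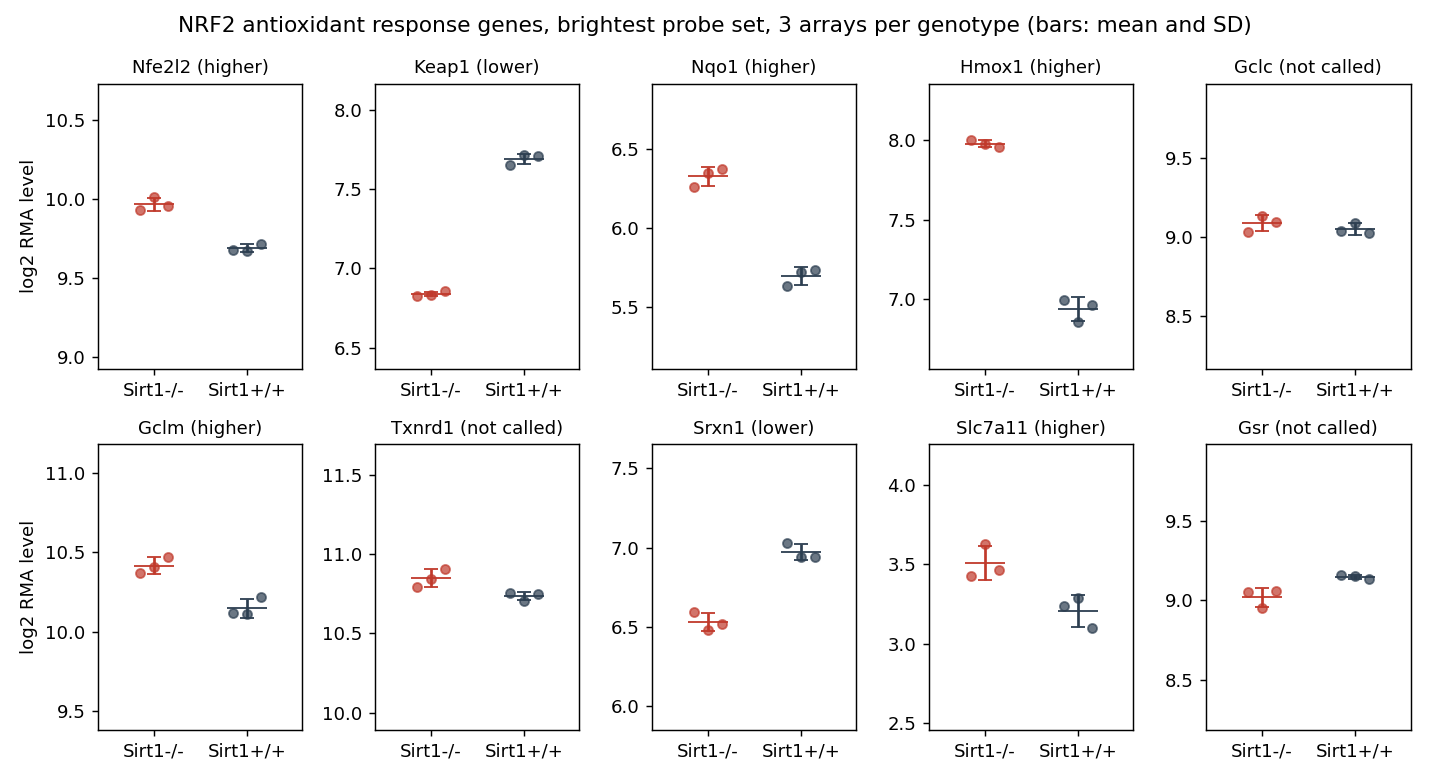
Log2 RMA level (vertical axis) of each NRF2 gene on its brightest probe set in the 3 Sirt1-/- arrays (left) and 3 Sirt1+/+ arrays (right), with mean and SD; every panel spans the same number of log2 units, and levels are not comparable between panels. Hmox1 shows the widest gap upward (1.04) and Keap1 the widest gap downward (-0.85), while the Gclc arrays overlap.

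The factor and its inhibitor moved in opposite directions. Nfe2l2 (probe set 1416543_at, gene on chromosome 2) read 9.93, 10.01 and 9.95 in Sirt1-/- cells, against 9.68, 9.67 and 9.72 in Sirt1+/+ cells. The rise was small and larger than the spread between arrays, at 1.21-fold, or 0.28 in log2 units (SE 0.05; limma, adjusted p = 0.00527). A second, dimmer Nfe2l2 probe set read 6.04, 6.01 and 5.90 in Sirt1-/- cells, against 5.23, 5.12 and 5.42 in Sirt1+/+ cells, a change of 0.73 (SE 0.09). Both Nfe2l2 probe sets therefore lay higher in every Sirt1-/- array, by unequal amounts. Keap1 (1450746_at, chromosome 9), the adaptor that presents NRF2 to the ligase, read 6.83, 6.83 and 6.85 in Sirt1-/- cells, against 7.65, 7.71 and 7.71 in Sirt1+/+ cells. All Sirt1-/- arrays were low, 1.81-fold on average, which is -0.85 in log2 units (SE 0.04; limma, adjusted p = 8.18e-05). The other Keap1 probe set read 5.38, 5.33 and 5.43 in Sirt1-/- cells, against 5.76, 5.56 and 5.54 in Sirt1+/+ cells. Its change of -0.24 (SE 0.08) had the same sign and did not pass when all 34945 probe sets with 1 symbol were tested (limma, adjusted p = 0.0620). The size of the Keap1 fall thus differed between its probe sets, while no array of either overlapped the other genotype.

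Hmox1 and Nqo1, both on chromosome 8 and each read by a single probe set, rose most among the 10 on the brightest probe sets. The dimmer Nfe2l2 probe set, at 0.73, rose more than Nqo1. Hmox1 (1448239_at), the inducible enzyme that opens the haem ring to give biliverdin, iron and carbon monoxide, read 8.00, 7.98 and 7.96 in Sirt1-/- cells, against 6.99, 6.85 and 6.96 in Sirt1+/+ cells. The means were 7.98 ± 0.02 and 6.94 ± 0.07 (SD, n = 3 each), so that Hmox1 was 2.06-fold higher, or 1.04 in log2 units (SE 0.05; limma, adjusted p = 8.10e-05). Nqo1 (1423627_at), which reduces quinones by 2 electrons at once and so avoids reactive semiquinones, read 6.25, 6.35 and 6.37 in Sirt1-/- cells, against 5.63, 5.72 and 5.74 in Sirt1+/+ cells. Its log2 change was 0.63 (SE 0.06), or 1.55-fold (limma, adjusted p = 0.000440). For both genes every Sirt1-/- array was above every Sirt1+/+ array.

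The chromosome around Hmox1 and Nqo1 was itself raised in Sirt1-/- cells. Of the 932 named genes of chromosome 8, 33.6% were called higher and 10.5% lower, and their median log2 change was 0.08. For each NRF2 gene the 20 nearest named genes brighter than the median gene were taken, 10 on each side in the order of the RefSeq table. Around Hmox1, 15 of the 20 neighbours were higher and 0 lower in limma, with a median of 0.26 and a range of -0.18 to 1.06. Smim7 (1.06) was the single neighbour that rose more than Hmox1. Around Nqo1, 14 of 20 were higher and 0 lower, with a median of 0.42 and a range of -0.06 to 1.21, and 3 of them rose more than Nqo1. Cyb5b, which encodes a cytochrome of the outer mitochondrial membrane, was the highest of these at 1.21. The part of the raised chromosome stretch in the rise of Hmox1 and Nqo1 was not tested. Gsr, also on chromosome 8, lay among neighbours with a median of -0.02, of which 3 were higher and 4 lower. Around the other 7 NRF2 genes the neighbours' medians ran from -0.12 for Gclc to 0.03 for Keap1. Of those 7 genes, 3 were higher and 2 lower. Single neighbours there moved both ways. Around Keap1, 2 of 20 were higher and 4 lower, with a range of -1.22 to 0.49. Gclc had 2 higher and 7 lower neighbours, and Slc7a11 had 2 higher and 8 lower.

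**Figure D2:**
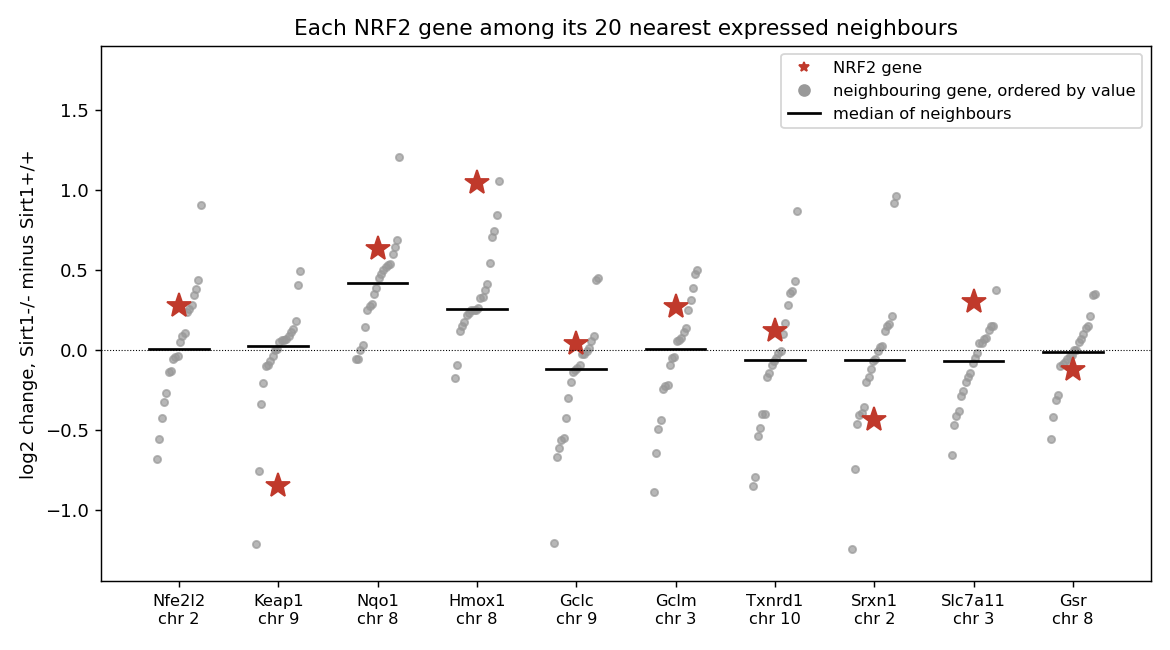
Log2 change in Sirt1-/- relative to Sirt1+/+ cells (vertical axis) of each NRF2 gene (star) and of its 20 nearest named genes brighter than the median gene (grey points, ordered by value), with their median as a bar. The bars of Nqo1 (0.42) and Hmox1 (0.26) stand above 0, and those of the other 8 genes lie between -0.12 and 0.03.

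Genes for glutathione supply split. Glutathione is built from glutamate, cysteine and glycine, and the first, rate-limiting step is taken by a ligase made of the catalytic subunit Gclc and the modifier subunit Gclm. Gclm (1418627_at, chromosome 3) read 10.37, 10.41 and 10.47 in Sirt1-/- cells, against 10.11, 10.11 and 10.22 in Sirt1+/+ cells. It rose by 0.27 (SE 0.06) on the log2 scale, or 1.20-fold (limma, adjusted p = 0.0116). Its dimmer probe set overlapped between genotypes, at 6.49, 6.86 and 6.73 in Sirt1-/- cells against 6.78, 6.42 and 6.81 in Sirt1+/+ cells. With the Gclm probe sets averaged the change was 0.15 and the call was lost (limma, adjusted p = 0.281). Gclc (1424296_at, chromosome 9) read 9.03, 9.13 and 9.10 in Sirt1-/- cells, against 9.04, 9.09 and 9.02 in Sirt1+/+ cells. These arrays overlapped, differing by 0.04 in log2 units (SE 0.05; limma, adjusted p = 0.662), and the second Gclc probe set gave 0.12 (SE 0.06). The modifier subunit thus passed the test and the catalytic subunit did not, and the difference between the 2 was not tested.

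Slc7a11, the cystine carrier of the xCT exchanger, was close to the floor of the array. Its brighter probe set (1420413_at, chromosome 3) read 3.43, 3.63 and 3.47 in Sirt1-/- cells, against 3.24, 3.29 and 3.10 in Sirt1+/+ cells. The lower quartile of the arrays lay at 3.16 to 3.24, so background limits this fold. The log2 change of 0.30 (SE 0.08), 1.23-fold, passed (limma, adjusted p = 0.0294). Leaving out an array lost the call in 4 of 6 cases: the change was 0.24 without Sirt1-/- replicate 2, 0.32 without Sirt1-/- replicate 3, 0.31 without Sirt1+/+ replicate 1 and 0.24 without Sirt1+/+ replicate 3. The other Slc7a11 probe set read 2.84, 3.15 and 2.67 in Sirt1-/- cells, against 2.53, 2.69 and 2.35 in Sirt1+/+ cells, with overlap. Gsr (1421816_at), which regenerates reduced glutathione from its disulfide with NADPH, read 9.05, 8.95 and 9.06 in Sirt1-/- cells, against 9.16, 9.15 and 9.14 in Sirt1+/+ cells. The Sirt1-/- arrays were all lower, by -0.13 (SE 0.05) on the log2 scale, which did not pass (limma, adjusted p = 0.104). Without the dimmest 40% of genes the same Gsr change passed (limma, adjusted p = 0.0394).

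The thioredoxin pathway members differed from each other. Txnrd1, the cytosolic selenoenzyme that recharges thioredoxin, read 10.79, 10.85 and 10.91 on its brightest probe set (1421529_a_at, chromosome 10) in Sirt1-/- cells, against 10.76, 10.70 and 10.75 in Sirt1+/+ cells. The arrays just failed to overlap, and the change of 0.11 (SE 0.05) did not pass (limma, adjusted p = 0.149). It passed with an intensity trend and a robust prior (limma, adjusted p = 0.0110). A dimmer Txnrd1 probe set read 6.62, 6.76 and 6.73 in Sirt1-/- cells, against 6.36, 6.23 and 6.52 in Sirt1+/+ cells, and its rise of 0.33 (SE 0.09) passed over all probe sets (limma, adjusted p = 0.0316). The dimmest of the 3 gave 0.18 (SE 0.14), with overlap. Srxn1, which repairs over-oxidised peroxiredoxins, was lower on its brightest probe set (1426875_s_at, chromosome 2), at 6.59, 6.48 and 6.52 in Sirt1-/- cells against 7.03, 6.94 and 6.94 in Sirt1+/+ cells. Srxn1 was thus 1.36-fold lower there, or -0.44 in log2 units (SE 0.05; limma, adjusted p = 0.00151). The other 3 Srxn1 probe sets gave -0.05, 0.09 and -0.17, none past the test and all with overlapping genotypes. With the Srxn1 probe sets averaged the change was -0.14 and the call was lost (limma, adjusted p = 0.371).

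Over the 21 probe sets of the 10 genes, 7 were higher, 2 lower and 12 not called in Sirt1-/- cells. Of all 34945 probe sets with 1 symbol, 11.6% were higher and 13.0% lower. Nfe2l2 was the only member with several probe sets called, and those were higher. In the other members opposite calls could not arise.

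**Figure D3:**
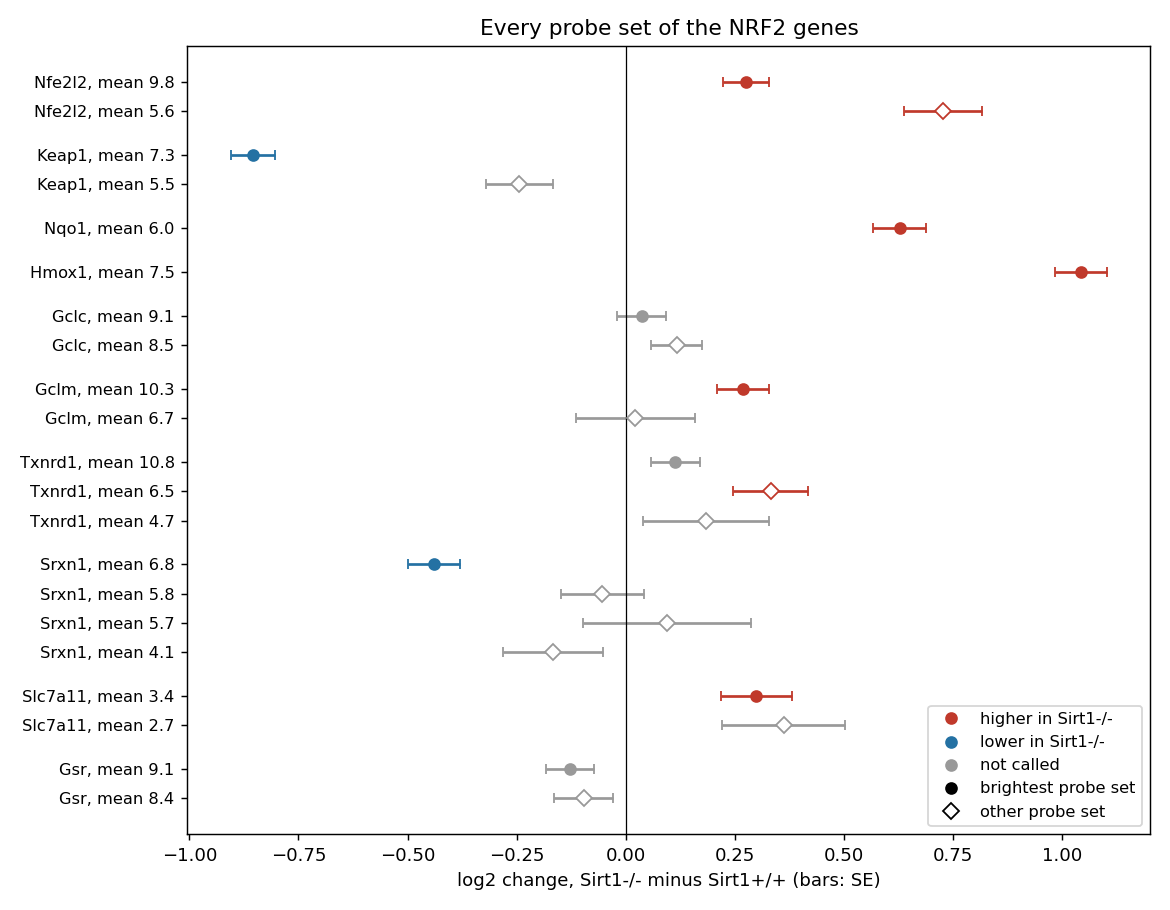
Log2 change in Sirt1-/- relative to Sirt1+/+ cells, with its SE, of all 21 probe sets of the NRF2 genes; the label gives the gene and the mean log2 level, filled circles are the brightest probe set of a gene and open diamonds the others, coloured by the test over all probe sets. The 4 Srxn1 probe sets run from -0.44 to 0.09, and both Nfe2l2 probe sets lie above 0.

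The counts for the lists of related genes that follow stand beside the 12.5% higher and 17.5% lower of all named genes, and each median beside -0.01. Partners and regulators of NRF2 changed in both directions. Of 13 listed genes 5 were higher and 3 lower, with a median log2 change of 0.11. Small Maf proteins, which bind antioxidant response elements together with NRF2, moved unequally. Mafg read 8.76, 8.85 and 8.94 in Sirt1-/- cells, against 8.19, 8.17 and 8.18 in Sirt1+/+ cells, and rose by 0.67 (SE 0.06; limma, adjusted p = 0.000427). Its second probe set also rose, by 0.46. Mafk rose by 0.71 (SE 0.08), while Maff fell, with a change of -0.37 (SE 0.06). Nfe2l3, a relative of NRF2 in the same transcription factor family, read 3.59, 3.74 and 3.65 in Sirt1-/- cells, against 5.34, 5.43 and 5.78 in Sirt1+/+ cells. That was the largest change of the list, -1.86 (SE 0.12; limma, adjusted p = 0.000149). The Sirt1-/- arrays lay close to the floor there, as for Slc7a11, so background limits this value. The dimmer Nfe2l3 probe sets gave -0.38 and 0.13, and only the first of these passed. The scaffold of the Keap1 ligase, Cul3 (0.01), and the repressor of the same elements, Bach1 (0.04), did not pass. The count of higher regulators was 3 without Sirt1-/- replicate 1 and also without Sirt1+/+ replicate 1.

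Of 18 further glutathione genes 8 were higher and 5 lower, with a median of 0.11. Slc3a2, Cth and Gss were among the rises, whereas Cbs (0.09) did not pass. Slc3a2, the heavy chain that carries Slc7a11 and other amino acid transporters to the membrane, read 11.46, 11.43 and 11.42 in Sirt1-/- cells, against 10.64, 10.62 and 10.66 in Sirt1+/+ cells. It rose by 0.80 (SE 0.04; limma, adjusted p = 9.11e-05). Cth, which releases cysteine from cystathionine, rose by 1.04 (SE 0.05). Gss, the glutathione synthetase gene, named after its values were seen, rose by 0.53 and 0.59 on its 2 probe sets. Glutathione transferases split, with Gstm1 higher by 0.58 (SE 0.05) and Gsta4 lower at -0.56 (SE 0.04). Gstm1 shares sequence with other genes of its cluster, so its probe sets may read more than 1 of them. The count of lower glutathione genes was 3 without Sirt1+/+ replicate 1.

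Of the 10 measured genes of the wider thioredoxin and peroxiredoxin system 4 were higher and 1 lower, with a median of 0.10. Prdx2 and Prdx4, which remove hydrogen peroxide in the cytosol and in the endoplasmic reticulum, rose by 0.62 (SE 0.05) and 0.60 (SE 0.05). Prdx2 also lies on chromosome 8. Cytosolic thioredoxin, Txn1, rose by 0.33, while its dimmer probe set gave 0.11, with overlap, and did not pass. Mitochondrial thioredoxin, Txn2, rose by 0.48, and its other probe sets by 0.40 and 0.34. Of 12 genes for detoxification, haem and iron handling 1 was higher and 3 lower, close to the shares over all named genes, and the median was 0.04. The epoxide hydrolase Ephx1 (-0.58), the carbonyl reductase Cbr3 (-0.50) and Ugdh (-0.41), which makes the sugar donor for glucuronidation, were lower. Nqo2, a relative of Nqo1, was higher by 0.26 where it was brightest, whereas the other readings were -0.13 and 0.06 and did not pass. That call was lost without Sirt1-/- replicate 2 and without Sirt1+/+ replicate 1, each of which left 0 higher genes in limma. The constitutive haem oxygenase Hmox2 (0.05), the biliverdin reductase Blvra (0.11) and the ferritin heavy chain Fth1 (0.04), which act beside or after Hmox1, did not pass.

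Genes of the integrated stress response, whose factor ATF4 is also known to drive Slc7a11, were higher with few exceptions. Of 10 listed genes 8 were higher and 0 lower in limma at the adjusted threshold, and their median log2 change was 0.73. Nupr1, a stress-induced chromatin protein, rose by 2.20 (SE 0.06), the transcription factor Ddit3 by 1.27 (SE 0.06) and the pseudokinase Trib3 by 0.96 (SE 0.06). Atf4 itself changed by -0.07 and did not pass. Earlier results of these data had already shown this list to be high, so its count is not independent evidence. Chac1 and Slc3a2 were also members of the glutathione list, and Sesn2 of the thioredoxin list.

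**Figure D4:**
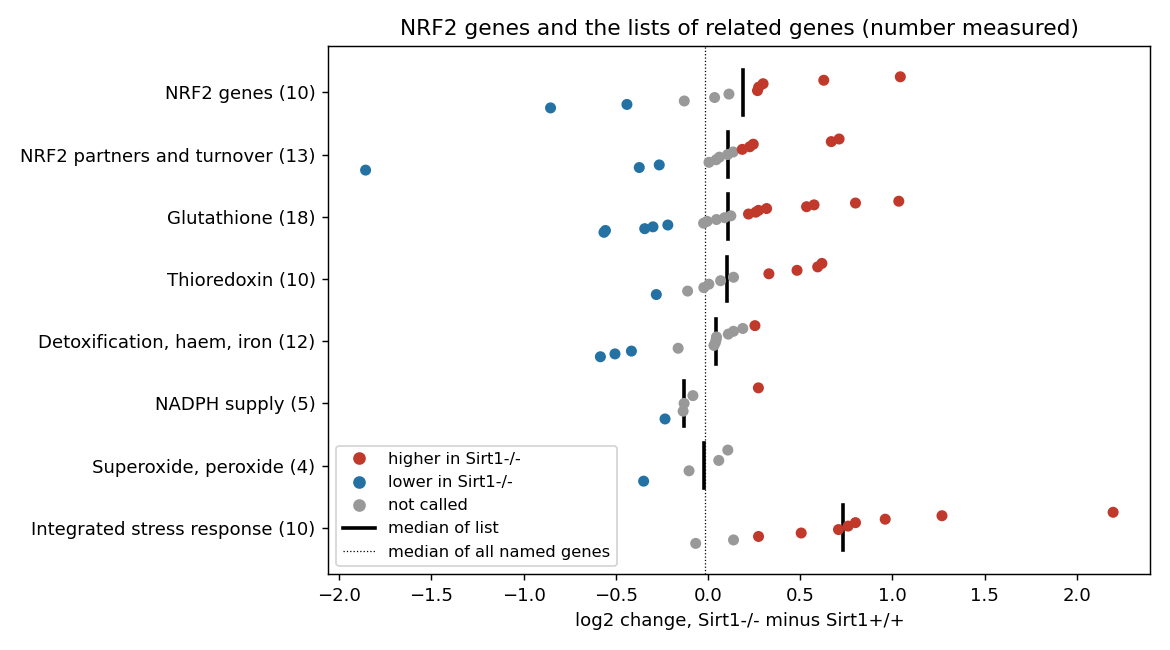
Log2 change in Sirt1-/- relative to Sirt1+/+ cells (horizontal axis) of every measured gene of the NRF2 group and of 7 related lists (rows, with the number measured); each point is a gene, coloured by its call, the bar is the list's median and the dotted line the median of all named genes. The integrated stress response row (median 0.73) lies to the right of the NRF2 row (median 0.19), and the other rows have medians from -0.13 to 0.11.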

How the data were processed

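The authors deposited log2 expression values per probe set, which the submitters' processing notes credit to Partek 6.5 and RMA. As usually run, RMA removes background, makes the arrays' distributions equal and condenses each probe set by median polish. Settings are not given in the sources, and the log2 scale was read from the range of the values. They were used without recentring. Of 45101 probe sets, 64 controls, 932 with several symbols and 9160 with none were left out. The remaining 34945 gave 18193 genes, of which 18031 matched the RefSeq table by Entrez identifier. Each gene was read on its brightest probe set by the mean of all 6 arrays, dim ones included, and compared with limma 3.58.1 in R 4.3.3 (two-sided, Benjamini-Hochberg, 4 residual degrees of freedom before moderation). For the members whose arrays do not overlap an exact permutation test gives p = 0.1, the smallest that 3 against 3 arrays allow. The number of arrays limits the precision, and the median within-group SD was 0.0985.

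The members and lists were chosen with earlier results of these data known. Named genes were the members, Sirt1, up to 4 genes with the largest passing change and no overlap per list, and the 3 genes closest in profile to Nfe2l2 and to the member with the largest change. Other genes named in the text fall outside that rule and were chosen after their values were seen. Among them were Gss, Cyb5b, single cell type markers and genes that did not pass. Such genes included Cul3, Bach1, Hmox2, Blvra, Fth1, Atf4, Pgd, Me1, Idh1, Sod1 and Cat. Prdx1, Prdx5, Prdx6, Ftl1, G6pdx and Fbn1 were not analysed here. Alternatives were repeated quantile normalisation, centring of arrays, the mean of probe sets, leaving out the dimmest 40% of genes, another variance model, a replicate block, a threshold of 0.01, all probe sets tested together, and each array left out. On simulated data for this comparison with 18193 genes, 14% of genes changed by 0.25 were recovered, 54% at 0.5, 92% at 1 and 96% at 2, with 9 false calls. Only 50 genes were changed at each size, whereas 30.0% of all named genes were called in the data. The Benjamini-Hochberg cutoff depends on that share, so these rates do not carry over directly.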

Additional observations from a re-analysis of the deposited data

How the results depend on the processing

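Under 14 alternatives the 10 genes gave 139 log2 changes, of which 126 kept their direction and their side of the threshold, 10 lost the call, 3 gained it and 0 reversed. Hmox1 (adjusted p in limma at most 0.00211), Keap1 (0.00232), Nqo1 (0.00342) and Nfe2l2 (0.0264) were called under all 14. Averaging the probe sets of a gene left 3 members higher and 1 lower. At an adjusted p under 0.01, 3 members were higher, and over all named genes 1347 were higher and 2009 lower, against 2270 and 3192 at 0.05. Leaving out each array in turn gave 4 to 5 higher and 2 to 2 lower members. With the replicate block 5 members were higher and 2 lower, and 1908 genes were higher and 2792 lower. It changed no call of a member, and it left 3 regulators higher. Deviations of like-numbered arrays correlated at 0.0515, -0.0865 and 0.198 across genes, and 3 of the 6 arrays correlated best with their own number in the other genotype, so the numbers were not taken to pair the samples. Of 280 counts for the related and marker lists, 261 stayed within 1.5 times. With an intensity trend and a robust prior Slc7a11 was not called (limma, adjusted p = 0.0565), and it is not among the genes left after removal of the dimmest 40%. The cause of these changes was not tested.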

Other observations

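Genes of NADPH supply and of superoxide removal were called about as often as the 30.0% of all named genes. Of 5 measured genes of the NADPH supply list 1 was higher and 1 lower. The list's other measured genes, Pgd (-0.13), Me1 (-0.08) and Idh1 (-0.13), did not pass. The count of lower genes of this list was 3 without the dimmest 40% of genes. It was also 3 with an intensity trend and a robust prior. Tkt, the transketolase of the pentose phosphate pathway, was higher by 0.27 (SE 0.05), and its other probe sets gave 0.45 and 0.40. Taldo1, the transaldolase of that pathway, was lower at -0.23 (SE 0.05), and this call was lost without Sirt1+/+ replicate 1, which left 0 lower genes of the list in limma. Of 4 genes for removal of superoxide and hydrogen peroxide only 1 was called, the mitochondrial dismutase Sod2, which was lower, at 10.58, 10.64 and 10.58 in Sirt1-/- cells against 10.98, 10.90 and 10.97 in Sirt1+/+ cells. Its log2 change was -0.35 (SE 0.05; limma, adjusted p = 0.00247), a second probe set gave -0.33, and the dimmer ones gave -0.13 and 0.08 and did not pass. The cytosolic dismutase Sod1 (0.06) and catalase, Cat (0.11), did not pass.

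Profiles were compared by the root mean square difference of mean-centred log2 values over the 6 arrays, among 9095 other genes brighter than the median gene. A small difference requires a similar change between genotypes, and shared regulation was not tested. Closest to Nfe2l2 were the lactate carrier gene Slc16a1 (0.0129), the cytochrome oxidase subunit gene Cox7a2 (0.0130) and the RNA helicase gene Ddx3x (0.0141). Their log2 changes were 0.29, 0.25 and 0.28, beside 0.28 for Nfe2l2. Closest to Hmox1 were the peptide transporter gene Slc15a2 (0.0311) and 2 genes of chromosome 8, Smim7 (0.0311) and the kinesin gene Kifc3 (0.0381).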
